A study of Mus musculus with 14 samples.

Results

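The miRNA miR-223, the archetypal miRNA of granulocytes and monocytes, was followed in small RNA libraries of mouse macrophages and of the exosomes they released. Its hairpin gives 2 mature products, mmu-miR-223-3p and mmu-miR-223-5p (below without the species prefix), and both were taken by name from the deposited table, so that 2 of its 1250 lines are described here in all 14 libraries. The samples had bone marrow as their source and fall into 4 groups: exosomes of control macrophages (labelled wild type, 4 libraries), exosomes of stimulated macrophages (4), lysates of control cells (3) and lysates of stimulated cells (3). The titles of the stimulated samples name IL4, the cytokine that turns macrophages towards an alternative, tissue-repairing state. Dose, exposure time, strain, sex and age are not given in the labels, and neither is the genotype of the stimulated cells. The labels do not say whether libraries came from separate animals or cultures, so a p-value here speaks of the spread among the deposited libraries only, and that spread may be technical. The titles also carry dates, and within a compartment each date holds 1 control and 1 IL4 library. No date is shared between exosomes and lysates, so differences between the compartments cannot be told apart from differences between dates.

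Most miRNA hairpins yield a guide strand, which is kept in the silencing complex, and a passenger strand, most of which is discarded. In miR-223 the 3p arm is the guide in myeloid cells. Transcription factors of the myeloid lineage, PU.1 and C/EBP proteins, drive the gene. The guide restrains granulocyte production through the transcription factor Mef2c, and it limits the inflammasome sensor Nlrp3 in macrophages. Myeloid cells also release it in vesicles.

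Both mature sequences are shown because the results turn on the balance between them; capitals mark the seed, bases 2 to 8, which leads target recognition. They were taken from RefSeq on the GRCm38.p6 build, the same assembly as mm10, which the submitters' processing notes name.
miR-223-3p: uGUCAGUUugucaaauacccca
miR-223-5p: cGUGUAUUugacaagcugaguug
Mir223 hairpin: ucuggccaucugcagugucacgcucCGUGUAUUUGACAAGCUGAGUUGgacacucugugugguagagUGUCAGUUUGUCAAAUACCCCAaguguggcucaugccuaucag
In the hairpin, capitals mark the arms, the 5p arm at bases 26 to 48 and the 3p arm at bases 68 to 89, with 19 bases between them. The arms are 23 and 22 bases long, so counts of the arms need no length scaling. The seeds are unlike each other, and of 1679 mature mouse miRNA names that RefSeq gave, none but these carried the seed of either arm. No other line of the counts table had the same counts as either arm in all libraries.

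The Mir223 gene lies on the plus strand of chromosome X, from 96242817 to 96242926 (GRCm38). In the GENCODE annotation it sits inside the non-coding transcript F630028O10Rik, in exon 3 of its 201 isoform and exon 2 of its 202 isoform, and not in an intron or a UTR of a coding gene. Both arms are cut from the same hairpin, which lies 2891 bases after the start of the 201 isoform. The 300 bases around that start, chrX:96239676-96239975 on the plus strand, are shown because both arms come from this gene and myeloid factors are known to act on it.
F630028O10Rik promoter: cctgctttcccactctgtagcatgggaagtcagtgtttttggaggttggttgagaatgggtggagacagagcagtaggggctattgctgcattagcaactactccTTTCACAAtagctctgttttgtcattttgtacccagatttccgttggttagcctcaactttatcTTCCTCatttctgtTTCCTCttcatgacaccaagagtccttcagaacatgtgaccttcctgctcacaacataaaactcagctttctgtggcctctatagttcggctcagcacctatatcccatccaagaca
Capitals mark matches on either strand, which do not overlap. The PU.1 core GAGGAA matched at bases 170 and 184 of the window, and 28.3% of 32851 promoter windows of this length held a match. The C/EBP pattern TTNNGNAA matched 1 time, and 40.7% of windows held a match. The STAT6 pattern TTCNNNNGAA, for the factor that IL4 activates, had 0 matches here and at least 1 in 6.95% of windows. Such matches describe letters only.

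The depth of the libraries limits the passenger arm in exosomes. Exosome libraries summed to 28417 to 411671 counts and lysate libraries to 3941480 to 6792079. The guide was read 493 to 5653 times in an exosome library and 32000 to 158124 times in a lysate. The passenger was read only 7 to 109 times in an exosome library, against 515 to 5252 times in a lysate. Wilson intervals given below cover counting error only, since reads made by PCR are not independent molecules. Among the marker miRNAs of the labelled cells, the pan-leukocyte miR-142a-3p was present in every library, at 3191 to 6507 CPM (a library's counts scaled so that each library has the same sum). The listed miR-142a-5p, miR-21a-5p, miR-155-5p and miR-146a-5p were also read in every library. The macrophage-linked miR-511-3p had only 37 reads over all IL4 exosomes and 12 over all control exosomes, with a lowest value of 0 CPM in each group. For miR-511-5p these sums were 19 and 7 reads.

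In cell lysates both products of the hairpin were lower with IL4, the passenger arm by more than the guide arm. The guide miR-223-3p stood at 23953, 23281 and 19458 CPM in control lysate replicates 1 to 3 and at 10654, 8119 and 6230 CPM in IL4 lysate replicates 1 to 3. No IL4 lysate reached the lowest control. The passenger miR-223-5p stood at 835, 773 and 582 CPM in the controls and at 221, 133 and 100.2 CPM with IL4. Again the groups lay apart, as 15.3% of the 443 lines tested did in this direction. At the 3 dates the control exceeded the IL4 lysate by 2.25, 2.87 and 3.12-fold in the guide and by 3.77, 5.81 and 5.81-fold in the passenger. Each date showed the larger ratio in the passenger arm.

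Tested over all lines with edgeR's quasi-likelihood test, with scaling by trimmed mean of M values (TMM), miR-223-3p had a log2 difference of -1.24 with IL4 (SE 0.17, 95% confidence interval -1.63 to -0.86, adjusted p = 0.00754, 3 against 3 libraries). The value for miR-223-5p was -2.11 (SE 0.26, interval -2.72 to -1.50, adjusted p = 0.00754). Both of 2 arms thus fell, by 2.37-fold and 4.31-fold, where 7.22% of all lines were called and 1.35% were called lower. With the date as a block 50 lines in place of 32 were called, the arms among them (-1.25 and -2.13). Scaling to library size lowered the median of all lines by 0.19 on the log2 scale. Relative to that median the guide stood at -1.24 with TMM and -1.22 by library size, and the passenger at -2.11 and -2.07.

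A ratio to another leukocyte miRNA needs no scaling between libraries. There were 4.20, 4.45 and 4.05 reads of miR-223-3p per read of miR-142a-3p in control lysate replicates 1 to 3, and 1.88, 2.30 and 1.50 with IL4, so the groups did not overlap. The log2 difference of miR-142a-3p itself was -0.05 (SE 0.17, adjusted p = 0.960, edgeR). Against miR-16-5p, a widely expressed miRNA, miR-223-3p stood at 2.96, 2.12 and 2.05 in controls and at 1.32, 0.937 and 0.890 with IL4. Here too the IL4 lysates were all lower. How many other lines lay apart in such ratios was not counted, while in CPM 15.3% of lines did so in this direction. In rank, the guide was the 7th to 9th most counted line in control lysates and the 17th to 24th with IL4, and the passenger went from the 78th to 86th place to the 118th to 143rd. A bulk lysate cannot tell fewer cells that express a miRNA from less of it per cell.

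**Figure D1:**
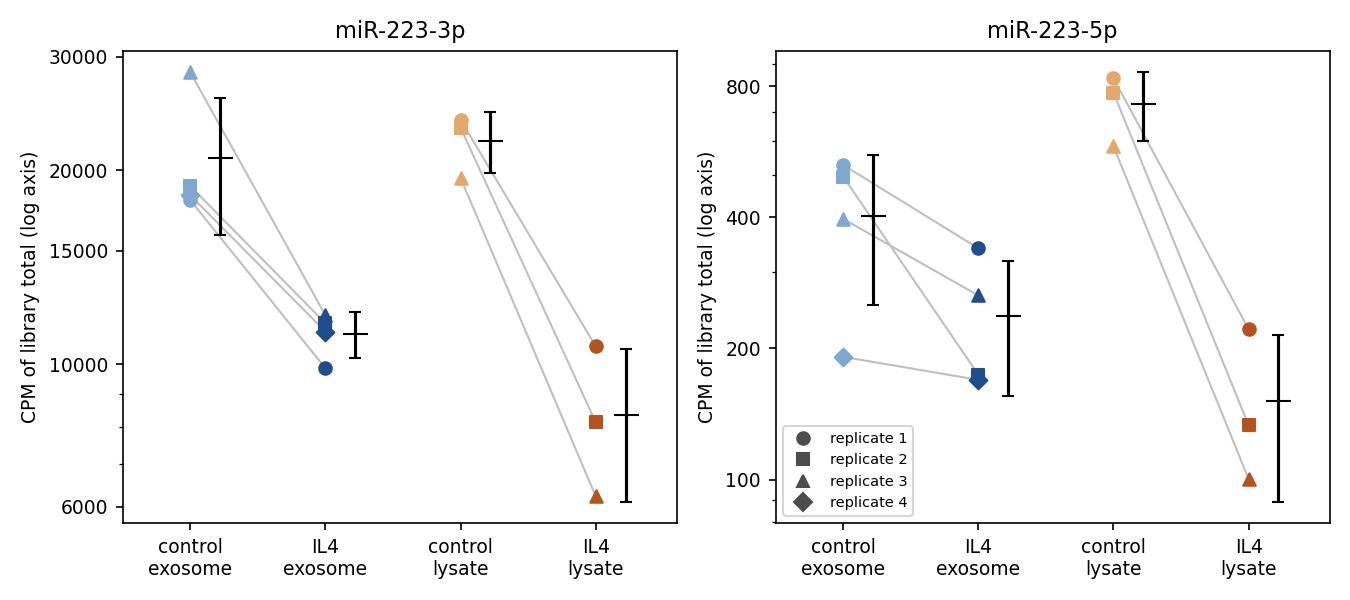
Level of miR-223-3p (left) and miR-223-5p (right) in every library, in CPM on a log axis, by group; symbols are replicates, grey lines join libraries of 1 date within a compartment, and black bars are group means ± SD (n = 4 for exosomes, n = 3 for lysates). All 3 lysate dates and all 4 exosome dates run downwards from control to IL4 in both arms, with the widest drop in lysate miR-223-5p, from 582 to 835 CPM down to 100.2 to 221 CPM.

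In exosomes the guide was also lower with IL4, by less, and it did not pass the threshold. Exosomes of control macrophages held miR-223-3p at 17982, 18904, 28404 and 18291 CPM (replicates 1 to 4), and those of IL4 macrophages at 9854, 11575, 11910 and 11234 CPM. The groups did not overlap, as was so in this direction for 3.3% of the 182 lines tested. Control replicate 3, of 5 April, stood well above the other controls. The control exceeded the IL4 library by 1.82, 1.63, 2.38 and 1.63-fold at the 4 dates (sign changes of the 4 within-date log2 differences, exact permutation test, two-sided, p = 0.125, which is the lowest p 4 dates can reach).

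With edgeR, miR-223-3p had a log2 difference of -0.75 in exosomes (SE 0.20, 95% confidence interval -1.21 to -0.29, adjusted p = 0.216, 4 against 4 libraries), and 3 lines had a lower unadjusted p. Over all lines 0.549% were called, and 0 of 182 were called lower; 12 lines in either direction had an unadjusted p under 0.05. DESeq2 called 6 lines, miR-223-3p among them (-0.65, adjusted p = 0.0319). Without control exosome replicate 3 the edgeR value was -0.46 (adjusted p = 0.470), and without both libraries of 5 April it was -0.51. The latter setting was chosen after seeing the data.

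The passenger arm overlapped between exosome groups. It stood at 528, 496, 397 and 191 CPM in control replicates 1 to 4, from 15, 27, 79 and 7 reads. With IL4 the values were 339.8, 174, 265 and 169 CPM, from 17, 13, 109 and 13 reads. Every date had the lower value with IL4 (by 1.55, 2.85, 1.50 and 1.13-fold), but control replicate 4 lay below IL4 replicates 1 and 3. The log2 difference of -0.58 (SE 0.42, interval -1.51 to 0.35, adjusted p = 0.804, edgeR) leaves room for no change and for a fall as large as that of the guide. Leaving out 1 library at a time gave -0.80 to -0.24, none of them called; the smallest differences came without control exosome replicate 1 (-0.24), IL4 replicate 2 (-0.27), IL4 replicate 4 (-0.29) or control replicate 2 (-0.37).

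Set against other miRNAs of the same exosomes, the guide showed a partial overlap. There were 3.02, 4.15, 8.90 and 2.81 reads of miR-223-3p per read of miR-142a-3p in control exosomes and 2.92, 2.45, 2.58 and 2.69 with IL4. IL4 replicate 1 thus lay above control replicate 4, and control replicate 3 was far above all others. Per read of miR-16-5p the values were 2.78, 1.83, 2.24 and 2.18 in controls and 1.80, 1.69, 1.85 and 1.46 with IL4, where control replicate 2 lay below IL4 replicate 3.

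Markers of other cells were present in the exosomes. Few of their lines were tested there: 4 erythroid, 1 lymphocyte, 2 endothelial and megakaryocyte, 3 stromal, 2 epithelial and 3 liver, gut and serum lines. With IL4, 0 of them were called by edgeR, which called 0.549% of all 182 lines, or by DESeq2, which called 6 lines. Apart from the epithelial lines, all of them had log2 differences below 0 in IL4 against control exosomes. These ran from -0.99 (miR-144-3p) to -0.28 (miR-140-3p), against a median of -0.09 over all lines. The 2 epithelial lines had values of 1.07 (miR-203-3p) and 1.95 (miR-205-5p). At an unadjusted p under 0.05, 2 erythroid lines were lower, and 12 of all lines differed in either direction. The erythroid markers, led by miR-451a, took 2.95 to 5.53% of reads in control exosomes and 2.18 to 3.05% with IL4, against 0.0117 to 0.0211% in lysates of either group. The endothelial and megakaryocyte marker miR-126a (both arms) took 0.686 to 2.75% in control exosomes and 0.41 to 1.59% with IL4. Liver, gut and serum markers took 0.134 to 1.30% and 0.188 to 0.828%, lymphocyte markers 0.0656 to 0.187% and 0.0639 to 0.138%, and stromal markers 0.555 to 0.987% and 0.356 to 0.739%. Epithelial markers, led by miR-203-3p, took 0.0814 to 4.89% and 0.0355 to 10.5%. None of the marker lines found was at 0 over a whole exosome group. Their part in the exosome result was not tested. In lysates the erythroid, lymphocyte, miR-126a and epithelial lists each took at most 0.0242% of any library, and liver, gut and serum markers at most 0.0549%. Stromal markers, led by miR-140-3p, took 0.361 to 0.451% of control lysates and 0.247 to 0.364% of IL4 lysates. Of their 6 tested lines 0 were called by edgeR or DESeq2, where edgeR called 7.22% of all 443 lines. At an unadjusted p under 0.05, 1 stromal line was lower, and 63 of all lines differed in either direction. Their part in the lysate result was not tested.

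**Figure D2:**
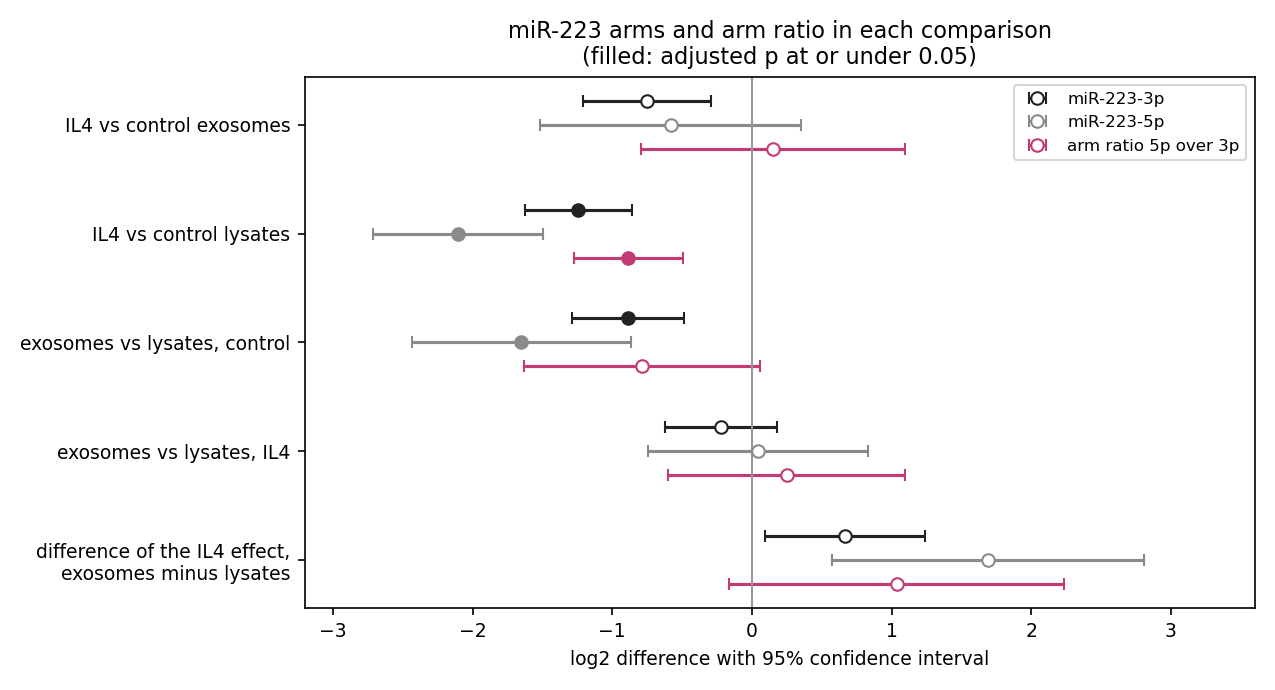
The log2 difference of miR-223-3p, miR-223-5p and their ratio in each of the 5 comparisons, with 95% confidence intervals (edgeR for the arms, limma for the ratio); filled points passed an adjusted p of 0.05. In IL4 against control lysates all 3 quantities are filled and negative (-1.24, -2.11 and -0.89), whereas in exosomes none is filled.

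The balance of the arms was then compared, since the ratio of both products of 1 hairpin does not depend on the scaling between libraries. In control lysates the passenger made up 3.37, 3.21 and 2.91% of the hairpin's reads in replicates 1 to 3 (95% Wilson intervals within 2.81 to 3.46%). With IL4 it made up 2.04, 1.61 and 1.58% (intervals within 1.45 to 2.15%). The lysate groups lay apart by more than their counting intervals. Put as a ratio, a control lysate had 28.7 to 33.4 guide reads per passenger read and an IL4 lysate 48.1 to 62.1. The share fell at 3 of 3 dates, by 1.33, 1.60 and 1.32 percentage points.

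The log2 ratio of 5p over 3p was tested with limma over the 129 hairpins with both arms at a mean of at least 5 counts in lysates. For miR-223 it differed by -0.89 with IL4 (SE 0.18, 95% confidence interval -1.27 to -0.50, adjusted p = 0.0230, lower at 3 of 3 dates), and 0.775% of hairpins were called, which is miR-223 alone. The call depends on how the spread was modelled. It ended when limma's prior variance did not follow the counts of the rarer arm (adjusted p = 0.336) and in an edgeR count model of both arms, added after seeing the data (-0.88, adjusted p = 0.302). It also ended without IL4 replicate 2 (-0.83, adjusted p = 0.143), IL4 replicate 3 (-0.82, 0.293), control replicate 2 (-0.87, 0.107) or control replicate 3 (-0.95, 0.0784). With the date as a block it stayed (-0.89, adjusted p = 2.1e-05). An exact permutation test of the 6 ratios alone gave p = 0.1, two-sided, the smallest that 3 against 3 libraries allow.

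Among all 129 hairpins the median change of the arm ratio in lysates was 0.02, and the changes ran from -1.47 to 1.56. By absolute size that of miR-223 was the 10th largest. The larger ones had few reads in the rarer arm, whereas miR-223-5p had a mean of 2600 counts per lysate. Of 60 hairpins whose rarer arm averaged at least 100 counts, a limit chosen after seeing the data, the other 59 changed by -0.84 (miR-345) to 0.54. Arm ratios of 3.88% of hairpins lay wholly below the controls with IL4, miR-223 being among them.

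**Figure D3:**
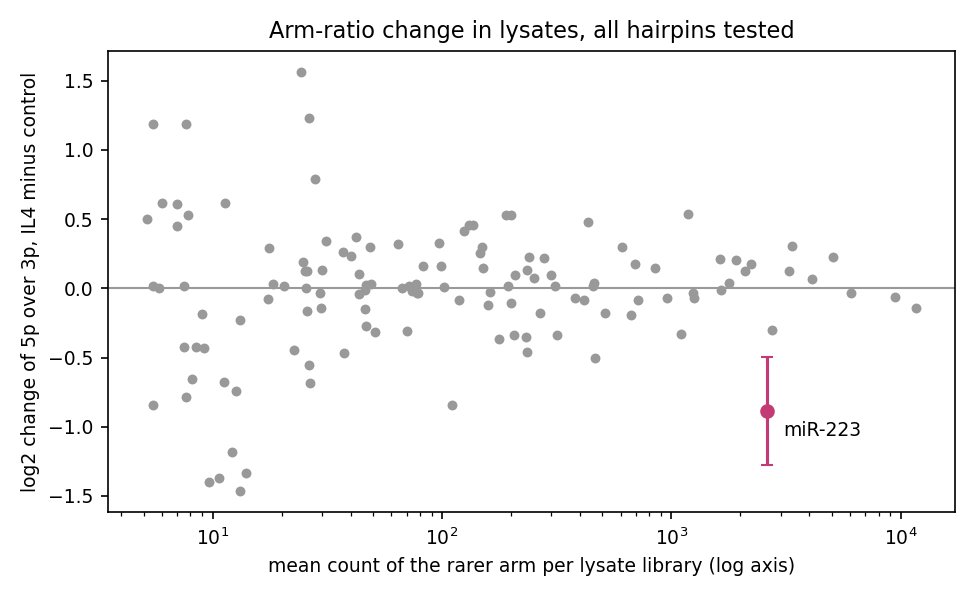
Change of the log2 ratio of 5p over 3p with IL4 in lysates (vertical axis) against the mean count of the rarer arm per lysate library (log axis), 1 point for each of 129 hairpins, with the 95% confidence interval for miR-223. Changes spread widely where the rarer arm has few reads and narrow to the right, where miR-223 lies below the others at -0.89.

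Exosomes showed no such separation of the arm balance. The passenger share was 2.85% (95% Wilson interval 1.74 to 4.65%), 2.56% (1.76 to 3.70%), 1.38% (1.11 to 1.71%) and 1.04% (0.502 to 2.12%) in control replicates 1 to 4. With IL4 it was 3.33% (2.09 to 5.27%), 1.48% (0.868 to 2.52%), 2.17% (1.81 to 2.62%) and 1.49% (0.870 to 2.53%). The groups overlapped across most of their range, and the share was lower with IL4 at 1 of 4 dates. Control replicate 3, the library with the highest guide level, had a share whose interval lies below that of IL4 replicate 3, of the same date.

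For exosomes the log2 ratio of the arms differed by 0.15 with IL4 (SE 0.46, 95% confidence interval -0.79 to 1.10, adjusted p = 0.957, limma over 51 hairpins). A change as large as that seen in lysates lies just outside this interval, and smaller changes in either direction within it. An exact permutation test, two-sided, gave p = 0.714. The 1 hairpin called in exosomes (1.96%) was miR-362, named here after its values were seen, with a higher ratio of 5p over 3p with IL4 (2.30).

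**Figure D4:**
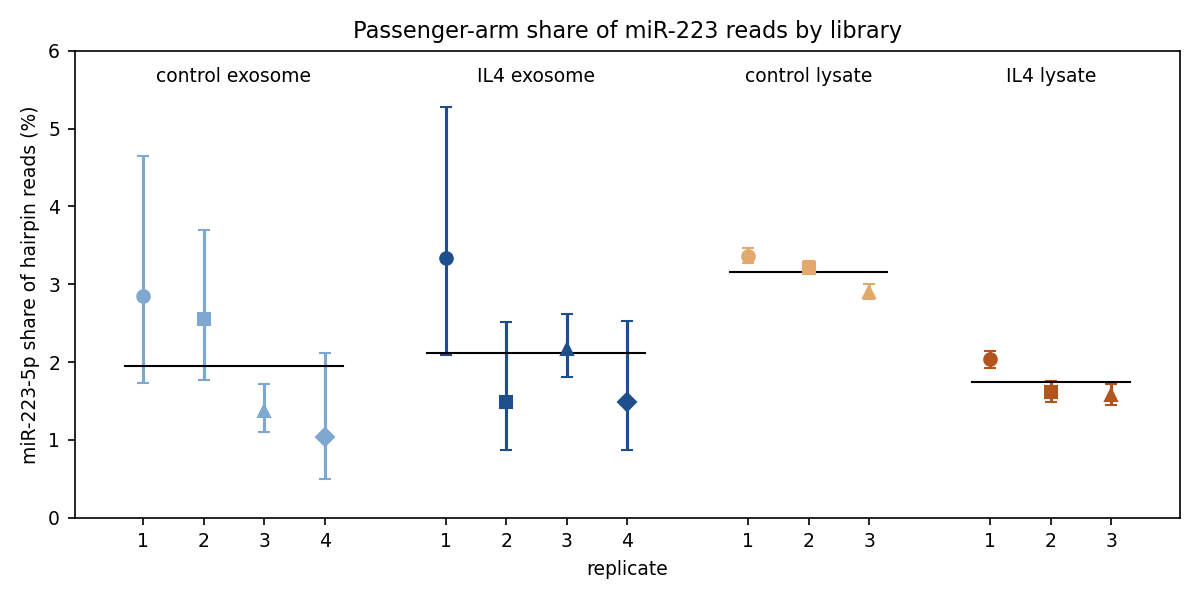
Share of miR-223 reads that come from the 5p arm, in percent, in each library, with 95% Wilson intervals (counting error only); black lines are group means. Control lysates (2.91 to 3.37%) lie above IL4 lysates (1.58 to 2.04%), while the exosome groups overlap between 1.04 and 3.33% with wide intervals.

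Whether the IL4 difference of miR-223 was unlike in cells and in exosomes was tested directly, in 1 fit of all libraries. The compartments share no date, so compartment and date cannot be told apart here. The IL4 difference in exosomes minus that in lysates was 0.66 for miR-223-3p (SE 0.27, interval 0.09 to 1.24, adjusted p = 0.994, edgeR) and 1.69 for miR-223-5p (SE 0.52, interval 0.57 to 2.81, adjusted p = 0.857). The intervals leave out 0, but neither arm passed the correction over 338 lines. No line did (0%), with 14 at an unadjusted p under 0.05 and 0 called by DESeq2. By unadjusted p the passenger arm was the second line of the 338 and the guide the 8th. For the arm ratio the difference was 1.04 (SE 0.57, interval -0.16 to 2.23, adjusted p = 0.994, limma). The exact permutation test of that difference, within compartments, gave p = 0.0786, two-sided, and 0.25 after Benjamini-Hochberg adjustment over the 5 arm-ratio comparisons.

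Between compartments, the level of the guide depended on what it was scaled to. As a share of all counts miR-223-3p was close in control exosomes and control lysates (20895 ± 5020 CPM, SD, n = 4, against 22230 ± 2425, n = 3), and the groups overlapped. With TMM scaling its log2 difference was -0.89 (SE 0.19; edgeR, adjusted p = 0.00124), lower in control exosomes. Leaving out 1 library at a time gave -0.98 to -0.57, all called, with -0.57 (adjusted p = 0.0337) without control exosome replicate 1. By library size the value was -0.09 (adjusted p = 0.814). The change of scale moved the median of all lines by 0.80. Relative to the median line the guide stood at -0.71 by either scaling, so it was less represented in control exosomes than the median miRNA tested.

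For the passenger arm the value was lower in control exosomes than in control lysates by either scaling, and of these scalings it passed the threshold with TMM. Its highest control exosome value, 528 CPM, lay below the lowest control lysate value, 582 CPM, as was so for 10.4% of lines. The log2 difference was -1.65 (SE 0.37, adjusted p = 0.00173, edgeR with TMM), and -0.86 by library size, where the call ended (adjusted p = 0.0986). Both arms were thus among the 21.6% of 338 lines called lower in control exosomes with TMM. The passenger share of hairpin reads was 1.96 ± 0.88% in control exosomes and 3.16 ± 0.24% in control lysates. The ratio of the arms differed by -0.79 (SE 0.40, interval -1.63 to 0.06, adjusted p = 0.241, limma over 113 hairpins, 4.42% called), which did not pass.

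With IL4 neither arm was called between the compartments, and the sign of the guide's value changed with the scaling. The guide was at 11143 ± 903 CPM in IL4 exosomes (n = 4) and 8334 ± 2220 CPM in IL4 lysates (n = 3), and the passenger at 237 ± 81.3 and 152 ± 62.7 CPM, each with overlapping groups. Log2 differences were -0.22 for the guide (SE 0.19, interval -0.62 to 0.18, adjusted p = 0.343) and 0.04 for the passenger (SE 0.37, interval -0.75 to 0.83, adjusted p = 0.937), where 49.1% of lines were called (edgeR with TMM). By library size the guide's value was 0.42 (adjusted p = 0.160), and relative to the median line it stood at -0.21 with TMM and -0.26 by library size. The ratio of the arms differed by 0.25 (SE 0.40, interval -0.60 to 1.10, adjusted p = 0.811, limma, 1.77% called). The order of group means for the guide was control lysate, control exosome, IL4 exosome, IL4 lysate. Neighbours in that order overlap except for control and IL4 exosomes. For the passenger the order was the same, and control and IL4 exosomes overlapped, while control lysates lay above all other libraries. Each list of markers of other cells given above took a larger mean share of reads in control exosomes than in control lysates, by unlike amounts. The erythroid list took 4.01% of control exosome reads and 0.0163% of control lysate reads, and the stromal list 0.729% and 0.410%. Within the epithelial list, led by miR-203-3p, the mean of miR-200b-3p was 95.8 CPM in control exosomes and 75.9 CPM in control lysates. The part of these markers in the differences between compartments was not tested.

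Other miRNAs of myeloid cells did not move as a block with miR-223. Of 25 miRNAs linked to myeloid differentiation, 23 were tested in lysates, and 3 rose and 1 fell, where 7.22% of all lines were called and 1.35% were called lower. The stem-cell miRNA miR-125b-5p (1.30) and the lymphoid regulators miR-181a-5p (0.76) and miR-181b-5p (0.92) rose, while miR-146a-5p, which damps NF-kB signalling, fell (-2.26, adjusted p = 0.0224, edgeR). The median of the list was 0.07, against 0.0009 over all lines. Of 7 leukocyte and macrophage miRNAs, miR-511-3p (1.42) and miR-511-5p (1.08), from the mannose receptor gene, rose and miR-146a-5p fell, with a median of -0.05. Among 11 tested inflammatory miRNAs, those that rose were miR-21a-3p (1.16), miR-9-5p (2.45) and miR-146b-5p (2.76), and those that fell were let-7e-5p (-1.32) and miR-146a-5p, with a median of 0.46. The most abundant members, miR-21a-5p (0.63, adjusted p = 0.220) and miR-222-3p (0.24, adjusted p = 0.760), did not pass.

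In exosomes 0 of 22 tested members of the myeloid differentiation list and 0 of 5 of the leukocyte list were called by edgeR or DESeq2. At an unadjusted p under 0.05, 1 was lower in each, and it was the same line, miR-146a-5p (-1.44), which is in both lists. Over all 182 lines edgeR called 0.549% and DESeq2 6 lines. Of 6 inflammatory miRNAs, miR-146b-5p rose (1.65). The medians of these lists were -0.14, -0.22 and -0.33, against -0.09 over all lines. The value of miR-223-3p, -0.75, lay below each of them. Among marker lists of other cells the medians were -0.51 (erythroid), -0.46 (lymphocyte, 1 line) and -0.55 (endothelial and megakaryocyte). They were -0.29 for stromal, -0.60 for liver, gut and serum, and 1.51 for epithelial markers. Of the lines in these marker lists, miR-144-3p (-0.99) and miR-122-5p (-0.85) lay below miR-223-3p.

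The lines whose pattern was most like that of miR-223-3p were sought among 145 lines with a mean of at least 100 CPM in both compartments. The measure was Pearson's r of log2 CPM over the 14 libraries, each line centred on its compartment's mean. These points share libraries, depth and the IL4 contrast, and lines in 1 library compete for its reads, so r is given as a description. The median r was 0.29. The highest were miR-210-3p, which responds to hypoxia (0.87), miR-223-5p itself (0.86), miR-93-5p (0.86) and miR-25-3p (0.83), both of the miR-106b cluster in the cell-cycle gene Mcm7, and miR-146a-5p (0.80).

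The passenger arm followed the guide closely in lysates (r = 0.99, n = 6) and loosely in exosomes (r = 0.40, n = 8), where it had 7 to 109 reads. By contrast miR-210-3p and miR-93-5p followed the guide in both, with r of 0.97 and 0.86 in lysates and 0.89 and 0.91 in exosomes. Both were picked for a high r over the same 14 libraries, so high values within a compartment are partly set by that choice. In exosomes miR-210-3p was rarer than the passenger, with means of 164 CPM (control) and 74.3 CPM (IL4) against 403 and 237 CPM. Why the passenger followed loosely there was not tested. In size these lines differed. With IL4 in lysates the log2 difference was -0.75 for miR-210-3p (adjusted p = 0.0882, edgeR), -0.19 for miR-93-5p and -0.29 for miR-25-3p, none of which passed. Against -1.24 for miR-223-3p, the falls of miR-223-5p (-2.11) and miR-146a-5p (-2.26) were larger, and both passed. In exosomes miR-210-3p was not among the 182 lines tested. The means of miR-146a-5p were 2430 ± 1430 CPM in control lysates and 453 ± 184 with IL4 (n = 3 each). In exosomes it stood at 3479 ± 1695 and 1160 ± 585 CPM (n = 4 each, log2 difference -1.44, adjusted p = 0.243, edgeR).

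**Figure D5:**
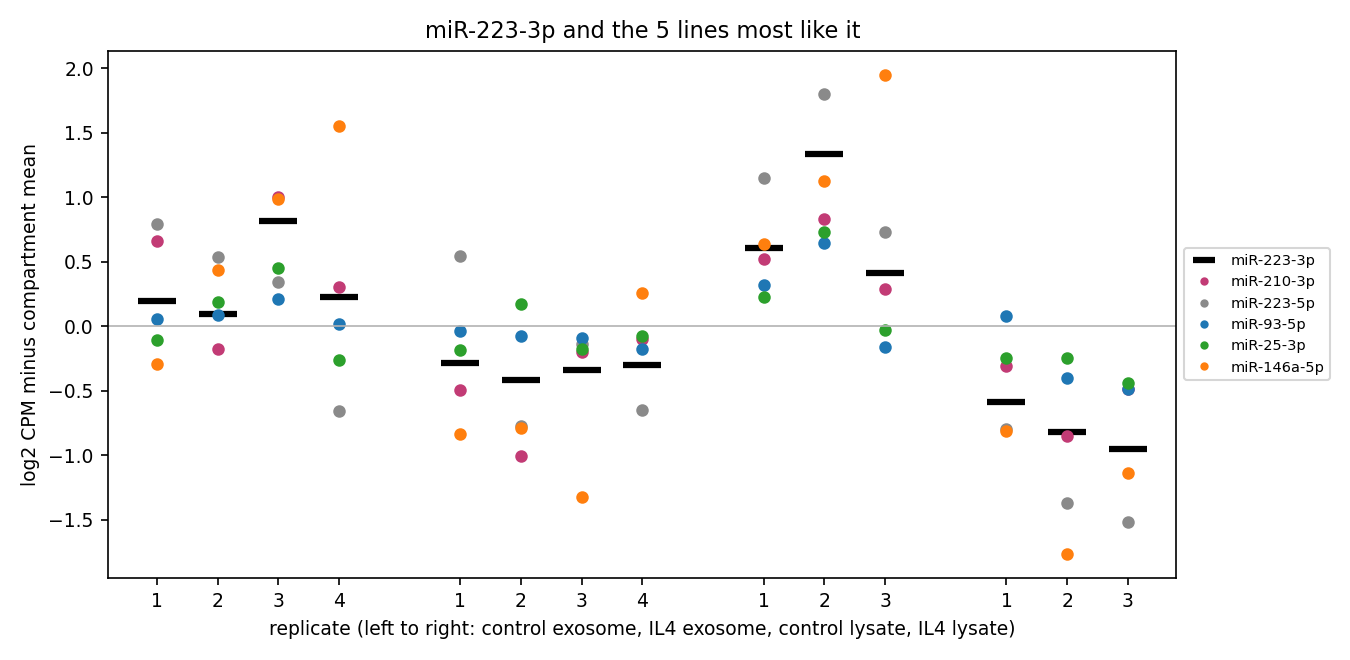
Log2 CPM minus the compartment mean in each library for miR-223-3p (black bars) and the 5 lines with the highest Pearson r to it (points); the 4 groups run from left to right. The black bars lie above 0 in all 7 control libraries and below 0 in all 7 IL4 libraries.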

How the data were processed

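Small RNA libraries of 8 exosome and 6 lysate samples were read from 1 table of raw counts per mature miRNA deposited by the authors. Per the labels' protocols, exosomes were purified on a density gradient and libraries made with a PerkinElmer NextFlex kit; per the submitters' processing notes, cutadapt and mm10 were used. For the aligner, counter and miRNA annotation: not given in the sources used here. Trimming and multi-mapping rules set which reads reached a line, and could not be changed. Columns were matched by title, and 0 were left unused.

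The test of the arms was the quasi-likelihood test of edgeR 4.0.16 (R 4.3.3; lines kept by filterByExpr, TMM factors; two-sided, Benjamini-Hochberg over all lines, threshold 0.05), IL4 effects within a compartment and others in 1 fit of 14 libraries. Arm ratios, log2((5p + 0.5)/(3p + 0.5)), were tested with limma 3.58.1 over hairpins with both arms at a mean of at least 5 counts, the prior variance following the rarer arm's mean log count. Standard errors of the arms are the log2 difference over the root of edgeR's F. Scripts were tested on simulated data. DESeq2 1.42.0, limma-voom, other scalings, filters and pseudocounts, and leaving out each library were alternatives. Libraries of 1 compartment that share a date in their titles were taken as pairs, though the labels do not say what the date refers to; deviations of same-date libraries correlated at 0.06 to 0.40 in exosomes and 0.34 to 0.73 in lysates. Replicates differed by more than sampling noise in every pair (lowest ratio of chi-square to degrees of freedom 21.0). Named lines were the arms, list members called or most abundant in their list, and the 5 lines most like miR-223-3p. The members and lists were chosen with earlier results of these data known. Among the listed erythroid miRNAs, miR-486a-5p and miR-486b-5p share 1 line.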

Additional observations from a re-analysis of the deposited data

Results flagged for a closer look

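Control exosome replicate 3, of 5 April, held miR-223-3p at 28404 CPM, far above the other 3 control exosomes (17982 to 18904 CPM) by Dixon's test. It was the deepest control exosome library, with 199025 counts. Its IL4 partner of the same date, at 11910 CPM, did not stand apart from the other IL4 exosomes. By chance such a test marks about 1 in 20 groups for each measure tested. It was also run on the passenger level, the passenger share and the guide's ratios to miR-142a-3p and miR-16-5p, in both exosome groups. Only this value was marked. The test could not be applied to the lysate groups, which have 3 libraries each.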

How the results depend on the processing

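Both lysate falls stayed called in all 14 alternatives, from -1.42 to -1.18 for miR-223-3p and from -2.37 to -2.01 for miR-223-5p (highest adjusted p = 0.0455). The replicate block, by date, changed no call of an arm or of the arm ratio (exosome miR-223-3p -0.73, adjusted p = 0.0821). The lysate arm-ratio call ended without a variance trend (-0.89) and in the count model (-0.88), and leaving out 1 library gave -1.004 to -0.82. The exact permutation test of the share (-1.42 percentage points, p = 0.1) could not keep the call. Its p is the smallest that 3 against 3 libraries allow. In exosomes miR-223-3p passed with DESeq2 (-0.65) only, and the arm ratio took the other sign in some of the fits that left out 1 library (-0.10 to 0.38). Control exosomes against lysates lost their calls by library size (-0.089 and -0.86). With IL4, miR-223-3p was 0.42 by library size, 0.045 with RLE factors and 0.044 with DESeq2, miR-223-5p was -0.22 without a filter on low counts and -0.016 with voom, and leaving out 1 library gave -0.17 to 0.39 for it and -0.0036 to 0.39 for the arm ratio. Called lines in exosomes numbered 0 by library size, 12 without a filter, 6 with DESeq2, 0 without 5 April and 0 to 2 without 1 library, against 1. In lysates they numbered 14 by library size, 4 in 1 fit of all libraries, 50 with the block and 2 to 34 without 1 library, against 32. For the difference of IL4 effects 3 were called without a filter, against 0. The cause of these moves was not tested. Depth limits miR-223-5p in exosomes, where 7 to 109 reads support each value.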
